A study of Homo sapiens with 9 samples.

Results

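The mitochondrial ribosomal proteins are the nuclear-encoded proteins that, with ribosomal RNAs of the mitochondrial genome, form the ribosome inside mitochondria. The genes were chosen by symbol, as those named MRPL or MRPS with a number and at most 1 further letter, on array probe sets that carry a single gene symbol. The choice of this group was made with earlier results of these data known. The symbol rule gave the following set. It held 77 probe sets of 33297 and 73 genes of 18417, of which 50 belong to the large subunit and 23 to the small subunit. By textbook assignment 43 have a bacterial counterpart and 30 are specific to mitochondria. Another 4 genes of the same naming (MRPL51, MRPS24, MRPS28 and MRPS6) were carried by probe sets that name several genes and are not analysed here.

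RNA was profiled with 9 Affymetrix arrays of H9-TCF7L1, a derivative of the H9 human embryonic stem cell line with a doxycycline-inducible transgene for TCF7L1, a repressor of Wnt target genes. The groups were cells given 48 h of primitive streak differentiation medium (PS medium) together with 48 h of doxycycline (Dox) at 1 ug/ml, cells given 48 h of PS medium alone, and untreated cells in mTeSR1, which keeps stem cells pluripotent, with 3 arrays each. All groups carry the transgene, and whether the line is 1 clone is not given in the sources used here. No group received Dox without the inducible transgene, or Dox without PS medium, so an effect of the drug and an effect of TCF7L1 cannot be told apart. The study's stated purpose was to find TCF7L1 targets.

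Mitochondria translate only the messages of their own genome, which encode core subunits of the respiratory chain and of ATP synthase. Doxycycline belongs to the tetracyclines, antibiotics that bind the small subunit of bacterial ribosomes, and it also inhibits translation on the related mitochondrial ribosome. The proteins of that ribosome are made in the cytosol from nuclear messages and imported, so the arrays read the supply side of the machinery and not its activity. Protein synthesis was not measured, and no mitochondrially encoded transcript was among the genes tested.

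The check of the induced gene set the scale for the induction. TCF7L1 had deposited intensities of 13100.2, 12433 and 2699.1 in PS medium + Dox, 1274.6, 1542 and 1611.4 in PS medium, and 3718, 3878.5 and 3571.8 in untreated cells. Replicate 3 of PS medium + Dox stood far below the other 2 arrays of its group and below every untreated array, so counts are also given without it. TCF7L1 passed between PS medium + Dox and PS medium (log2 2.39, limma adjusted p = 0.00464). Against untreated cells it did not (log2 1.04, limma adjusted p = 0.124). The 5 primitive streak markers (TBXT, MIXL1, EOMES, GSC and MESP1) summed to between 12709 and 19856 in PS medium + Dox, between 68637 and 77387 in PS medium and between 1221 and 1328 in untreated cells. EOMES was the largest part of this sum in both PS medium groups. GSC and MESP1 did not pass between PS medium + Dox and untreated cells (limma adjusted p = 0.203 and 0.402). The 6 pluripotency markers (SOX2, DNMT3B, LIN28A, ZFP42, TERF1 and PODXL) summed to between 27463 and 28631 in PS medium + Dox, between 20143 and 24398 in PS medium and between 34287 and 35962 in untreated cells. Of these only SOX2 (log2 2.18) and PODXL (0.55) passed between PS medium + Dox and PS medium. DNMT3B and TERF1 differed by 0.09 and 0.02 (limma adjusted p = 0.597 and 0.936), and LIN28A and ZFP42 by 0.15 and 0.24 (0.0654 and 0.0549). The 4 measured amnion and trophectoderm markers summed to between 23715 and 25523 in PS medium + Dox, between 14178 and 15065 in PS medium and between 573 and 667 in untreated cells. Within this list the members did not all move with the sum, of which TFAP2A was the largest part in both PS medium groups. KRT7 had a log2 difference of -1.75 between PS medium and untreated cells, and HAND1 one of -0.51 between PS medium + Dox and PS medium (adjusted p = 0.334). The 4 definitive endoderm markers (SOX17, FOXA2, CXCR4 and HHEX) summed to between 1857 and 2534 in PS medium + Dox, between 5077 and 12880 in PS medium and between 1181 and 1254 in untreated cells. The 3 neuroectoderm markers (PAX6, SOX1 and OTX2) summed to between 2575 and 3028 in PS medium + Dox, between 5886 and 7302 in PS medium and between 3041 and 3679 in untreated cells. This sum was mostly OTX2 in every group, and PAX6 did not follow it. PAX6 had mean intensities of 188.7 in PS medium + Dox, 62.1 in PS medium and 16.6 in untreated cells. It was higher in PS medium + Dox than in untreated cells (log2 2.51, limma adjusted p = 0.00435). Against PS medium alone it did not pass (limma adjusted p = 0.0858). The 5 fibroblast markers (COL1A1, COL1A2, THY1, DCN and LUM) summed to between 2697 and 2730 in PS medium + Dox, between 2808 and 2990 in PS medium and between 5646 and 5841 in untreated cells. THY1 was the largest part of this sum in untreated cells and was lower in both PS medium groups, as was COL1A1. COL1A2 was higher in both, by 0.65 in PS medium and 0.92 in PS medium + Dox on the log2 scale. DCN and LUM were dim and did not pass. None of the lists had a marker at 0. The sums moved with the groups, and their part in the results was not tested.

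The question put to the mitoribosomal genes was whether their RNA changed when Dox was added to PS medium. Of the 73 genes, 3 rose and 2 fell, or 6.85% (limma, Benjamini-Hochberg adjusted p under 0.05). The same rule called 17.4% of all genes, 8.91% as higher and 8.44% as lower. The 3 that rose were MRPL1, MRPS9 and MRPL35, and the 2 that fell were MRPL16 and MRPL32. The median log2 difference was 0.03 over the 73 genes and 0.002 over all genes, and 44 of the 73 differences (60.3%) were above 0, against 50.6% over all genes. Without adjustment 8 genes were higher (10.96%) and 5 lower (6.85%), against 14.7% and 13.6% of all genes. The normalized values of the 3 PS medium + Dox arrays lay wholly above those of the 3 PS medium arrays for 9 genes and wholly below them for 9, together 18 of 73, where 30.9% of all genes had groups that did not overlap, 15.9% with higher and 15.0% with lower values.

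The precision was enough to bound most of these genes. The median standard error of a member's log2 difference was 0.08. For 71 of 73 genes (97.3%) the 95% interval of the difference lay within 1.5-fold in either direction, and the exceptions were MRPL1 and MRPS9. The corresponding share over all genes was 82.1%, and these intervals cover the spread between arrays only. With the replicate number as a block 8 members rose and 4 fell, beside 24.3% of all genes. Without PS medium + Dox replicate 3, 3 rose and 3 fell, and 3 of the 5 called genes were shared. The number of risers was 1 without PS medium + Dox replicate 2, PS medium replicate 1 or 3, or untreated replicate 1 or 2. The split of 3 higher and 2 lower became 1 and 2 under median centring and 3 and 4 on values as deposited.

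**Figure D1:**
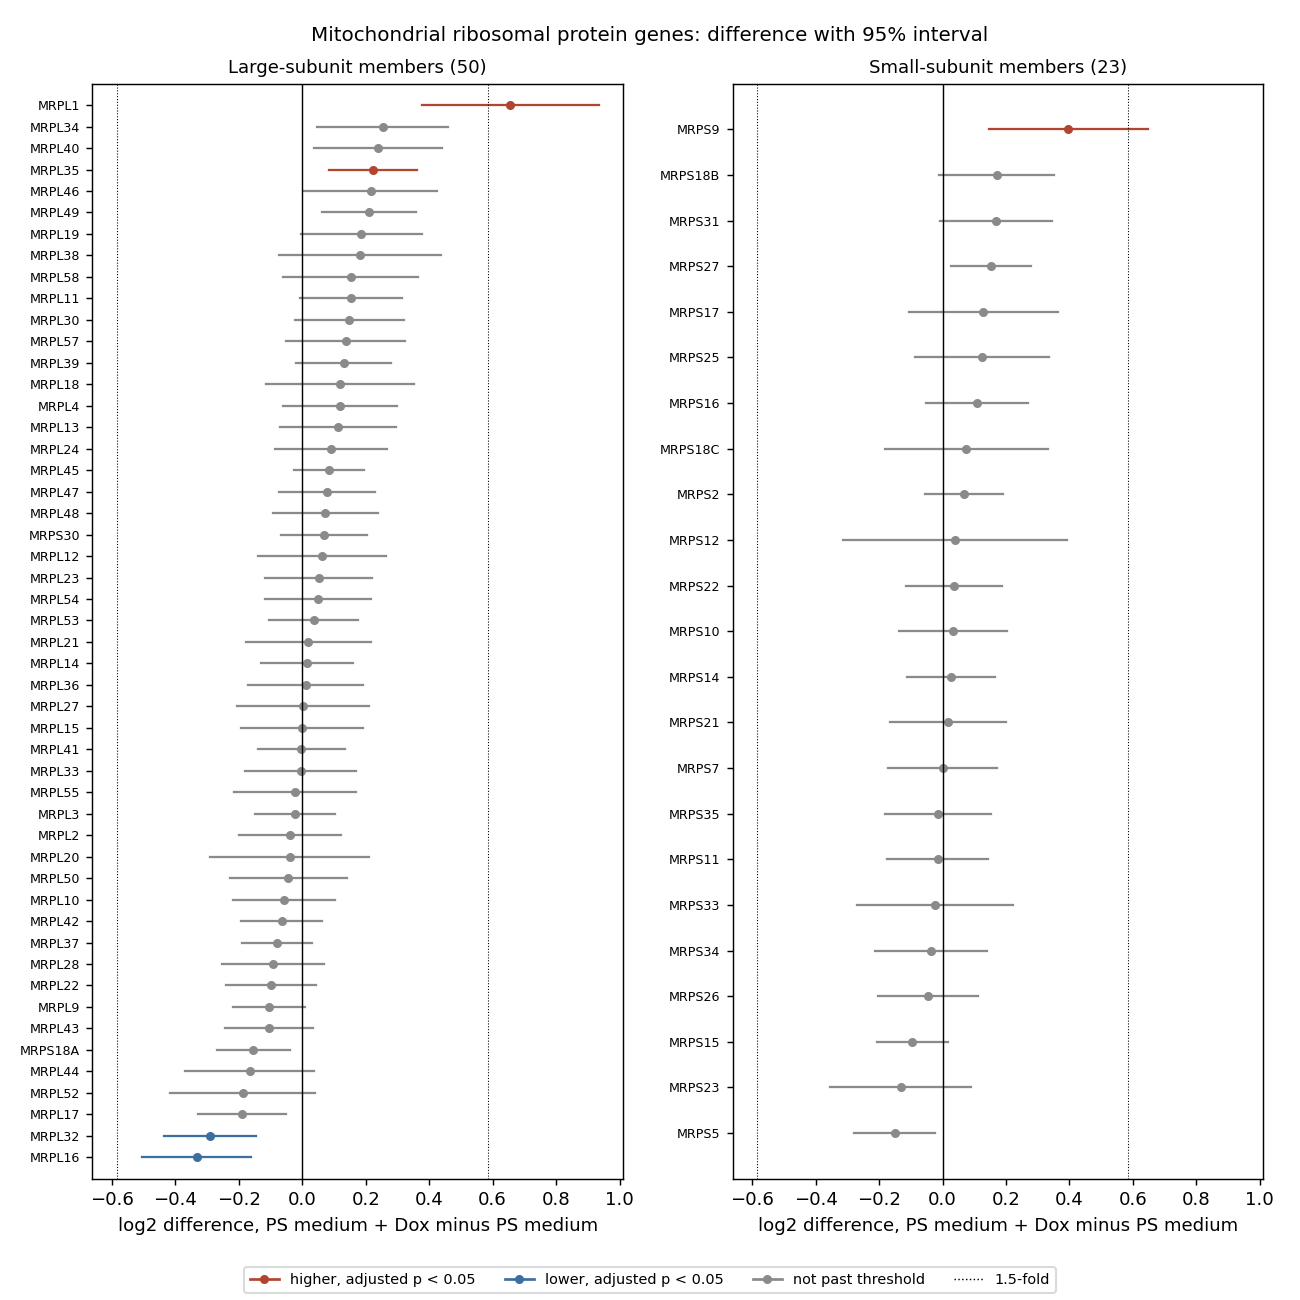
Log2 difference of each of the 73 mitochondrial ribosomal protein genes, PS medium + Dox minus PS medium, with its 95% interval from limma (horizontal axis, log2), for 50 large-subunit genes (left) and 23 small-subunit genes (right). Red points rose and blue points fell past the adjusted p of 0.05, grey points did not pass, and dotted lines mark 1.5-fold; 71 intervals lie between the dotted lines.

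MRPL1, the counterpart of the bacterial protein of the L1 stalk, where spent tRNA leaves the ribosome, had the largest difference of the 73. Its deposited intensities were 565.9, 789.9 and 600.4 in PS medium + Dox, 355.4, 423.1 and 422.9 in PS medium, and 449.6, 491.2 and 408.6 in untreated cells. All 3 PS medium + Dox arrays exceeded all 6 others. MRPL1 was 1.58-fold higher in PS medium + Dox than in PS medium (0.66 ± 0.13 on the log2 scale, standard error with 3 arrays a group, limma adjusted p = 0.00426, 95% interval 0.38 to 0.94). This was the sole member whose estimate exceeded 1.5-fold in that comparison.

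MRPS9, the counterpart of a bacterial small-subunit protein that reaches toward the tRNA sites, had intensities of 352.5, 465.8 and 390.5 in PS medium + Dox, 261.9, 329.3 and 309.2 in PS medium, and 476.7, 467.2 and 456.9 in untreated cells. The PS medium + Dox arrays lay above the PS medium arrays and overlapped the untreated ones. It was 1.32-fold higher in PS medium + Dox than in PS medium (log2 0.40 ± 0.11, adjusted p = 0.0337). MRPL35, a large-subunit protein with a bacterial counterpart, had 1021.8, 1069.7 and 1079.5 in PS medium + Dox, 894.1, 941.9 and 885.8 in PS medium, and 934.0, 1010.9 and 978.5 in untreated cells. Its PS medium + Dox arrays were above all others, by a small margin over the highest untreated array, and the rise over PS medium was 1.17-fold (log2 0.22 ± 0.06, adjusted p = 0.0312). The calls of MRPS9 and MRPL35 were each lost under 9 of 19 alternative settings, among them both without PS medium + Dox replicate 2 or 3, PS medium replicate 1 or 3, or untreated replicate 1 or 2. MRPL35 also lost its call without PS medium + Dox replicate 1, and MRPS9 without untreated replicate 3. The highest adjusted p was 0.127 for MRPS9 and 0.114 for MRPL35.

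MRPL16, the counterpart of a bacterial large-subunit protein near the tRNA binding sites, had 1174.6, 1406.6 and 1380.3 in PS medium + Dox, 1602.1, 1613.3 and 1817.4 in PS medium, and 1398.2, 1472.0 and 1433.7 in untreated cells. PS medium held the 3 highest values, and the other groups overlapped. MRPL16 was 1.26-fold lower in PS medium + Dox than in PS medium (log2 -0.33 ± 0.08, adjusted p = 0.0127). MRPL32, which in yeast and mouse is matured by a protease of the mitochondrial inner membrane before it joins the ribosome, had 1184.8, 1377.1 and 1229.3 in PS medium + Dox, 1534.5, 1610.5 and 1525.4 in PS medium, and 1450.6, 1478.3 and 1361.8 in untreated cells. Here too the PS medium arrays were the 3 highest. MRPL32 was 1.22-fold lower in PS medium + Dox than in PS medium (log2 -0.29 ± 0.07, adjusted p = 0.0103). The calls of MRPL1, MRPL16 and MRPL32 held under all 19 alternative settings.

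**Figure D2:**
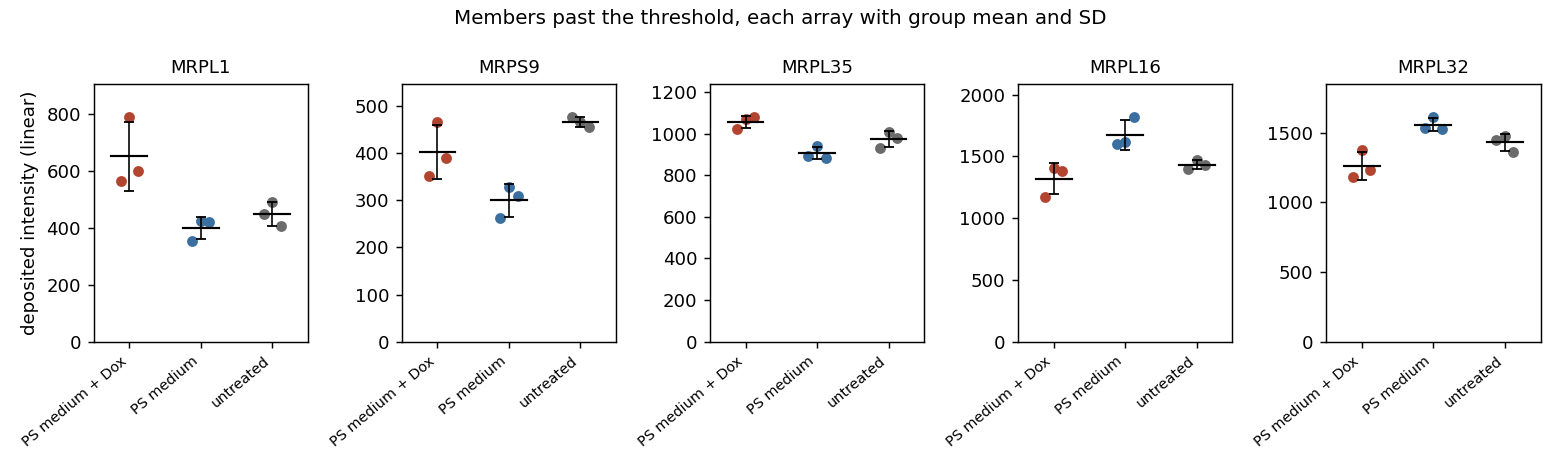
Deposited intensity (linear, vertical axis from 0) of the 5 genes past the threshold between PS medium + Dox and PS medium, with 1 point per array, the group mean as a bar and its SD as whiskers (n = 3 per group). PS medium + Dox lies above PS medium without overlap for MRPL1, MRPS9 and MRPL35 and below it without overlap for MRPL16 and MRPL32.

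The start-site sequences of 4 of these 5 genes are shown so that the letters upstream of the genes that moved up can be set beside those of the genes that moved down. Each is the RefSeq window (GRCh38.p14) of 250 bases before and 50 bases from the annotated start, read 5′ to 3′ on the gene's strand, and capitals mark matches on either strand to 4 short motifs. These are GCATGCG, the core bound by NRF1, CCGGAAG, bound by ETS factors such as GABP, ATGGCGG, bound by YY1, and CTTTGAN, bound by TCF/LEF factors such as TCF7L1. ATGGCGG begins with a start codon and can coincide with one.
MRPL1, chr4:77862580-77862879, plus strand: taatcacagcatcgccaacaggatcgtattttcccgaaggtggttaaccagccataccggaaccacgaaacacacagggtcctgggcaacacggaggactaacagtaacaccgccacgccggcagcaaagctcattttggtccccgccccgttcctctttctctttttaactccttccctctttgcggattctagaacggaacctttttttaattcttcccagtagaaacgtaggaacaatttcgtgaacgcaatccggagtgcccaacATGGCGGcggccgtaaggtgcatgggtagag
MRPS9, chr2:105037819-105038118, plus strand: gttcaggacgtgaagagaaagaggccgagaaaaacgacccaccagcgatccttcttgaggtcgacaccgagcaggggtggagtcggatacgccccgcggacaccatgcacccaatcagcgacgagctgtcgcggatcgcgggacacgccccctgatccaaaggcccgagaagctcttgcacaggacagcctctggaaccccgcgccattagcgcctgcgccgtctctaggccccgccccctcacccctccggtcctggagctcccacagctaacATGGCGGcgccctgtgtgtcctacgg
MRPL16, chr11:59810729-59811028, minus strand: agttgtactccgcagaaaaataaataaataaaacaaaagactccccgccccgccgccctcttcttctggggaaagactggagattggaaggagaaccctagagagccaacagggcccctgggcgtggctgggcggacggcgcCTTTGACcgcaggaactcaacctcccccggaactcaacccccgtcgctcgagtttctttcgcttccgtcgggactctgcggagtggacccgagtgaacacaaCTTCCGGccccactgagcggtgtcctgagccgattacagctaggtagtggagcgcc
MRPL32, chr7:42932126-42932425, plus strand: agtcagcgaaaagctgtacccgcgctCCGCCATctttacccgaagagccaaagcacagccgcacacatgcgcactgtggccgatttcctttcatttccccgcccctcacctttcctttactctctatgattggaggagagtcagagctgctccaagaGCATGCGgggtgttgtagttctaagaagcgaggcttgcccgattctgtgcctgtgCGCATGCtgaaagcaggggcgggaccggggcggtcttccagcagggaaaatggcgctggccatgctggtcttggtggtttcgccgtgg

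MRPL1 held the YY1 letters with the first base at position 20 counted from the start, and MRPS9 held them at position 25. MRPL16 held the ETS letters at position -6 and the TCF/LEF letters at -108. MRPL32 held the NRF1 letters at -93 and -38 and the YY1 letters at -224. Windows were matched for 66 of the 73 genes (82 windows), beside 22198 windows of 15842 protein-coding genes. The ETS letters occurred in 39.0% of mitoribosomal windows and 12.8% of all protein-coding windows, the YY1 letters in 29.3% and 6.99%, the NRF1 letters in 8.54% and 4.63%, and the TCF/LEF letters in 4.88% and 10.9%. At least 1 of the first 3 motifs stood in a window of 46 genes (69.7%), against 27.3% of protein-coding genes. A match describes the sequence and does not show binding. A second protein-coding gene pointing the other way, with a window that overlapped the first, was found for 16 of the 66 genes (24.2%). Among protein-coding genes the share was 11.1%. PSMA2, a proteasome subunit, has a window that overlaps that of MRPL32. It differed by -0.05 ± 0.05 between PS medium + Dox and PS medium (log2, limma adjusted p = 0.596), where MRPL32 differed by -0.29. The windows of MRPL46 and MRPS11 overlap each other, and these genes differed by 0.22 and -0.02 (limma adjusted p = 0.161 and 0.925).

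By subunit, 2 of 50 large-subunit genes rose and 2 fell with Dox, and 1 of 23 small-subunit genes rose and 0 fell, with 2 higher and 1 lower at an unadjusted p under 0.05 in the small subunit. These are shares of 4% and 4% in the large subunit and of 4.35% and 0% in the small subunit, where 8.91% of all genes rose and 8.44% fell. At the unadjusted p the small subunit had 8.70% higher and 4.35% lower, against 14.7% and 13.6% of all genes. All 5 called genes have a bacterial counterpart, out of 43 such genes (11.6%, against 17.4% of all genes). Of the 30 mitochondria-specific genes 0 passed the limma threshold, with 4 higher (13.3%) and 1 lower (3.33%) at an unadjusted p under 0.05, against 14.7% and 13.6% of all genes. The difference between the classes was not tested.

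Members with well-described functions were read whether or not they moved, and none of them passed between PS medium + Dox and PS medium. MRPL12, a stalk protein that recruits translation factors and is also reported to bind the mitochondrial RNA polymerase, had 1007.0, 1130.0 and 1154.6 in PS medium + Dox, 1038.8, 1192.0 and 939.4 in PS medium, and 1170.2, 1221.7 and 1116.2 in untreated cells, with overlapping groups and a log2 difference of 0.06 ± 0.09 (adjusted p = 0.725). MRPS12, the counterpart of a bacterial protein of the decoding centre on the subunit that tetracyclines bind, had 355.1, 450.9 and 324.7 in PS medium + Dox, 374.4, 432.0 and 289.3 in PS medium, and 369.4, 392.9 and 310.0 in untreated cells. Its difference was 0.04 ± 0.16, and replicate 2 was the highest and replicate 3 the lowest array of every group.

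MRPL58, a peptidyl-tRNA hydrolase built into the large subunit, differed by 0.15 ± 0.10, MRPL44, which has an RNase III-like fold, by -0.17 ± 0.09, and MRPL45, which tethers the ribosome to the inner membrane, by 0.08 ± 0.05 (log2, adjusted p = 0.352, 0.283 and 0.311). MRPS30, which despite its symbol sits in the large subunit, differed by 0.07 ± 0.06. The paralogues MRPS18A, MRPS18B and MRPS18C, of which MRPS18A sits in the large subunit, differed by -0.15 ± 0.05, 0.17 ± 0.08 and 0.07 ± 0.12 (adjusted p = 0.0692, 0.203 and 0.743). MRPS18A had 1990.1, 2008.7 and 2050.3 in PS medium + Dox, 2265.6, 2277.5 and 2285.1 in PS medium, and 2032.0, 1964.6 and 2106.5 in untreated cells, so that PS medium held its 3 highest values. With the replicate block the calls of MRPS18A and MRPS18B passed, as did those of MRPL17, MRPL34, MRPL46, MRPL49 and MRPS27.

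Of the 3 genes with more than 1 probe set, MRPL20 and MRPS18B had identical values on all of theirs. MRPL36, the counterpart of a small bacterial large-subunit protein, differed between PS medium + Dox and PS medium by 0.01 ± 0.08 on probe set 8110861 and by -0.06 ± 0.13 on probe set 8180305, and neither passed. The gene listing also held 106 pseudogenes with an MRP symbol, and probe sets that match such copies could mix their signals.

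Between PS medium and untreated cells, the comparison that shows what the differentiation medium changed without Dox, 4 of the 73 genes rose and 8 fell (16.4%), where 29.8% of all genes were called, 14.2% higher and 15.7% lower. MRPL40, MRPL53, MRPL9 and MRPS11 rose, and MRPS9, MRPS26, MRPL57, MRPS34, MRPL42, MRPL54, MRPS27 and MRPS2 fell. The median log2 difference was -0.06, against -0.01 over all genes, and 46 of the 73 differences were below 0. Normalized groups did not overlap for 14 higher and 21 lower genes, together 35 of 73, where 43.3% of all genes had no overlap (20.8% higher and 22.5% lower). The 95% interval lay within 1.5-fold for 72 of 73 genes, against 75.9% of all genes, with MRPS9 the exception. This comparison and the previous one share the 3 PS medium arrays. In bulk RNA, fewer cells of a type and less RNA per cell cannot be told apart.

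The direction of this balance depended on the scaling. Median centring gave 5 higher and 3 lower with a median of -0.01, and values as deposited gave 6 higher and 7 lower. The count of fallers was 5 without PS medium replicate 1 or untreated replicate 2, and that of risers was 2 without PS medium replicate 3 or untreated replicate 1 or 2. The calls of MRPL42, MRPL53, MRPL9, MRPS26 and MRPS9 held under all 19 alternative settings. By subunit, 1 small-subunit gene of 23 rose and 5 fell, and 3 large-subunit genes of 50 rose and 3 fell. Among the mitochondria-specific genes 2 of 30 rose and 6 fell, and among those with a bacterial counterpart 2 of 43 rose and 2 fell. The fallers made up 21.7% of the small and 6% of the large subunit, against 15.7% of all genes. By class they made up 20% of the mitochondria-specific genes and 4.65% of those with a bacterial counterpart. Under median centring the falls of MRPL54, MRPL57, MRPS2, MRPS27 and MRPS34 lost their calls, so the higher shares depended on the scaling. The risers of each subunit and class were under the 14.2% of all genes. The difference between the subunits or classes was not tested.

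MRPS9, with the intensities given above, had the largest fall, 1.54-fold in PS medium against untreated cells (log2 -0.62 ± 0.11, limma adjusted p = 0.00174). MRPS26, a mitochondria-specific small-subunit protein, had 733.0, 803.9 and 824.2 in PS medium + Dox, 831.1, 813.5 and 788.0 in PS medium, and 1048.8, 1070.6 and 994.4 in untreated cells. Both PS medium groups lay below all untreated arrays, and MRPS26 fell 1.30-fold in PS medium against untreated cells (log2 -0.38 ± 0.07, adjusted p = 0.0022). MRPL57 (log2 -0.36), MRPS34 (-0.29), MRPL42 (-0.26), MRPL54 (-0.24), all specific to mitochondria, MRPS27, a pentatricopeptide repeat protein of the small subunit (-0.24), and MRPS2, with a bacterial counterpart (-0.21), fell by less. MRPS34 lost its call without PS medium replicate 1 or 3 or untreated replicate 1 or 2, MRPL54 without PS medium replicate 1 or 2 or untreated replicate 1, 2 or 3, and MRPS2 without PS medium replicate 1 or untreated replicate 2.

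MRPL40, a mitochondria-specific large-subunit protein whose gene lies in the region deleted in DiGeorge syndrome, had 1516.1, 1720.9 and 1460.6 in PS medium + Dox, 1204.3, 1334.8 and 1464.8 in PS medium, and 1003.2, 960.3 and 1131.0 in untreated cells. The deposited values of both PS medium groups were above all untreated arrays, while those 2 groups overlapped. After normalization they did not, with 10.53 as the lowest PS medium + Dox value and 10.51 as the highest PS medium value. MRPL40 did not pass between them (log2 0.24 ± 0.09, limma adjusted p = 0.107). It was 1.26-fold higher in PS medium than in untreated cells (log2 0.33 ± 0.09, limma adjusted p = 0.019). That call was lost without PS medium replicate 3 or untreated replicate 1 or 2. MRPL53, also specific to mitochondria, had 1983.5, 1981.3 and 2039.0 in PS medium + Dox, 1903.5, 1893.0 and 2143.9 in PS medium, and 1509.4, 1547.8 and 1642.1 in untreated cells. All 6 arrays in PS medium exceeded the untreated ones, and the rise in PS medium alone was 1.23-fold (log2 0.30 ± 0.06, adjusted p = 0.0042). MRPL9 rose by 0.25 and MRPS11 by 0.24 on the log2 scale, both counterparts of bacterial proteins; MRPS11 lost its call without PS medium replicate 2 or 3 or any 1 untreated replicate.

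Cells in PS medium + Dox were also set against untreated cells, a comparison that shares its arrays with both of the others and adds the medium to the induction. Of the 73 genes 5 rose and 5 fell (13.7%), where 30.3% of all genes were called, 15.3% higher and 14.9% lower, and the median log2 difference was -0.02. The groups did not overlap for 9 higher and 11 lower genes, together 20 of 73, where 45.0% of all genes had no overlap (22.9% higher and 22.1% lower). The 95% interval lay within 1.5-fold for 71 genes, against 75.6% of all genes, with MRPL1 and MRPL40 the exceptions. MRPL40 had the largest rise, 1.48-fold (log2 0.57 ± 0.09, adjusted p = 0.000827), followed by MRPL1 (0.48), MRPL53 (0.34), MRPL49 (0.26) and MRPS11 (0.23). MRPS26 had the largest fall, 1.34-fold (log2 -0.42 ± 0.07, adjusted p = 0.00112), followed by MRPS34 (-0.33), MRPL42 (-0.33), MRPL32 (-0.20) and MRPL37 (-0.15). MRPL37, a mitochondria-specific large-subunit protein, had an adjusted p of 0.0493 and lost its call under 13 of 19 alternative settings. Calls were also lost for MRPL1 without untreated replicate 3, for MRPL49 without untreated replicate 1, for MRPS11 without PS medium + Dox replicate 2 or any 1 untreated replicate, and for MRPL32 without PS medium + Dox replicate 1 or 3, PS medium replicate 1 or untreated replicate 1 or 2.

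The replicate block gave 10 higher and 9 lower in PS medium + Dox against untreated cells, with 38.3% of all genes called. Values as deposited gave 6 higher and 3 lower with a median of 0.001, and median centring gave 4 and 3 with a median of 0.03, so the sign of the small median turned with the scaling. Fallers numbered 3 without PS medium + Dox replicate 1, PS medium replicate 1 or untreated replicate 1 or 2, and risers numbered 8 without PS medium + Dox replicate 1 and 3 without untreated replicate 1 or 3. Without PS medium + Dox replicate 3, 5 rose and 4 fell, and 8 of the 10 called genes were shared. MRPL40, MRPL42, MRPL53, MRPS26 and MRPS34 kept their calls under all 19 alternative settings. MRPS9 differed by -0.23 ± 0.11 from untreated cells and did not pass (adjusted p = 0.166).

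The median level of the members varied between arrays of the same group. The median member deviation from its own mean over 9 arrays was -0.05, 0.07 and -0.02 in PS medium + Dox, -0.04, 0.02 and -0.07 in PS medium, and 0.02, 0.03 and 0.03 in untreated cells (log2, replicates 1 to 3). Of the 73 genes, 16, 56 and 34 were above their own mean in PS medium + Dox, 28, 44 and 22 in PS medium, and 39, 52 and 44 in untreated cells. Replicate 2 was the highest array of its group in each case, and the spread within PS medium + Dox was wider than the difference between any 2 group medians given above. Member intensities ran from 224.7 to 4416.6, 0 of the 73 genes were removed by the filter on dim genes tried as an alternative, and 68 were above the median of all genes.

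**Figure D3:**
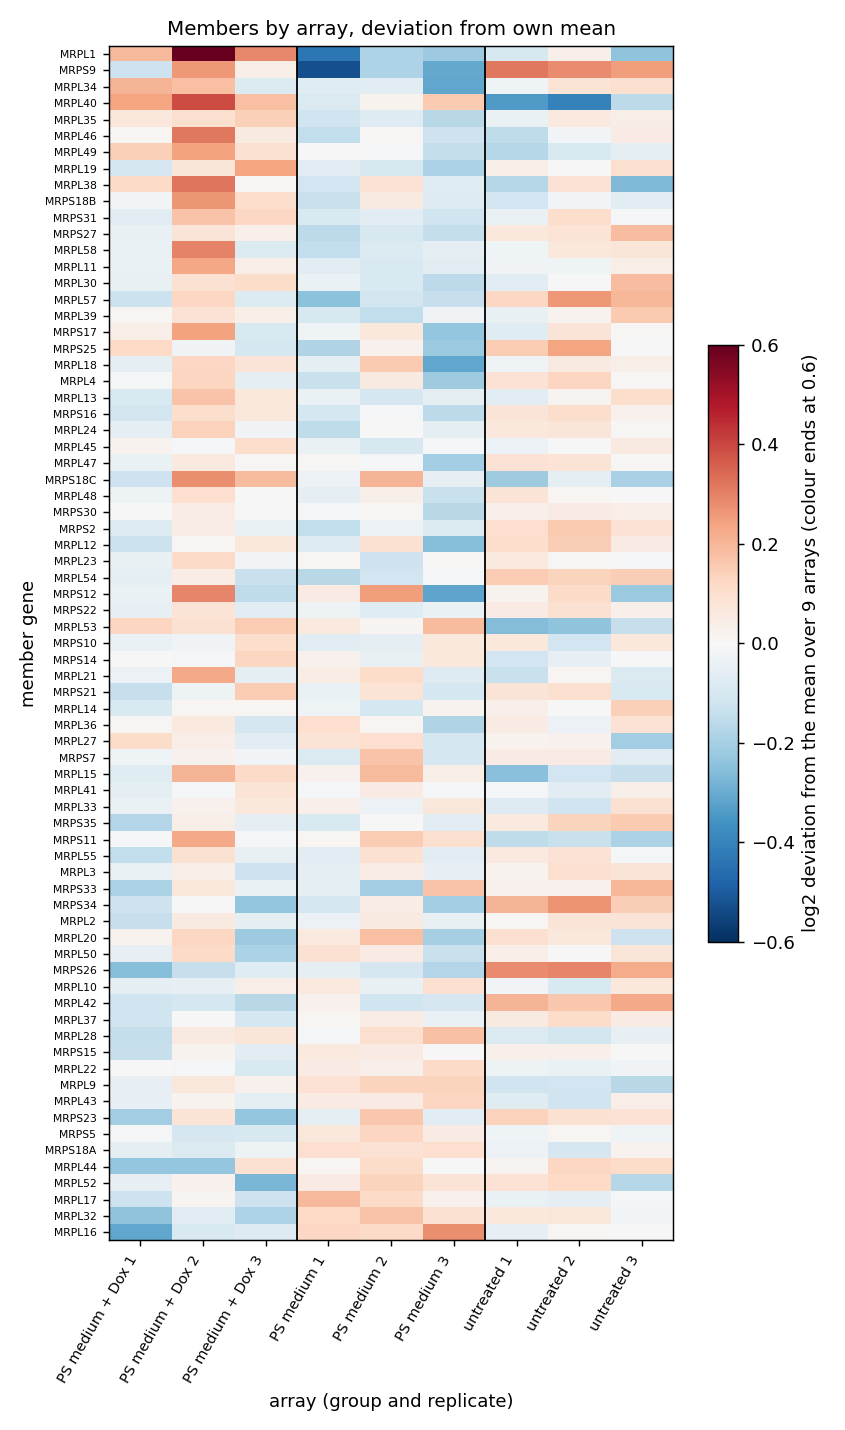
Normalized log2 level of each of the 73 genes (rows) on each of the 9 arrays (columns, by group and replicate), as the deviation from the gene's own mean over the arrays, with red above and blue below and the colour ending at 0.6. The rows run from the highest to the lowest log2 difference between PS medium + Dox and PS medium; 56 genes are above their mean in PS medium + Dox replicate 2 and 16 in replicate 1.

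The rest of the mitochondrial translation machinery was read from gene lists. Of 4 measured mitoribosomal proteins with other symbols, 0 passed between PS medium + Dox and PS medium in limma, and 0 did so at an unadjusted p under 0.05. Of 13 factors of mitochondrial translation 1 rose and 1 fell: MRRF, the ribosome recycling factor, with 1010.5, 1072.4 and 979.4 in PS medium + Dox, 791.9, 793.7 and 771.1 in PS medium, and 845.2, 956.3 and 800.2 in untreated cells, rose 1.29-fold over PS medium (log2 0.37 ± 0.07, adjusted p = 0.00562). Its PS medium + Dox arrays were above all 6 others. MTRES1, which rescues stalled mitochondrial ribosomes, fell by 0.34 on the log2 scale (adjusted p = 0.0451), a call lost without any 1 PS medium + Dox replicate, PS medium replicate 3 or any 1 untreated replicate. With the replicate block 2 of the factors rose. In this comparison the block called 24.3% of all genes, against 17.4% without it, which also bears on the block counts of the lists below. The fit without the block called 7.69% of the factors higher and 7.69% lower, against 8.91% and 8.44% of all genes.

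Of 25 assembly factors and rRNA-modifying enzymes 1 rose (4%) and 1 fell (4%), against 8.91% and 8.44% of all genes. NSUN4, a methyltransferase of the mitochondrial small-subunit rRNA that also takes part in joining the subunits, had 1445.6, 1588.3 and 1301.9 in PS medium + Dox, 883.5, 872.9 and 966.6 in PS medium, and 847.6, 833.7 and 947.0 in untreated cells. All its PS medium + Dox values were above the rest, and the rise over PS medium was 1.60-fold (log2 0.68 ± 0.08, adjusted p = 0.000289). RBFA, a maturation factor of the small subunit, fell by 0.38, a call lost without PS medium + Dox replicate 1 or 3 or PS medium replicate 2. Without PS medium + Dox replicate 2 or PS medium replicate 2 the list had 2 risers, and with the replicate block it had 4. Among 19 mitochondrial tRNA synthetase and amidotransferase genes 1 rose (5.26%) and 1 fell (5.26%), against 8.91% and 8.44% of all genes. QRSL1, a subunit of the glutaminyl-tRNA amidotransferase, rose by 0.37 and NARS2, the asparaginyl-tRNA synthetase, fell by 0.28 on the log2 scale. A second gene fell without PS medium replicate 3. None of 19 genes of mitochondrial DNA upkeep and expression passed in limma. At an unadjusted p under 0.05 3 were higher (15.8%) and 0 lower, against 14.7% and 13.6% of all genes. With the replicate block 2 were called higher, and without PS medium + Dox replicate 3 1 was. TFAM, which packages and transcribes the mitochondrial genome, differed by 0.002 ± 0.09.

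The regulators of nuclear mitochondrial genes held the largest difference among the listed genes. PPARGC1A, the coactivator of mitochondrial biogenesis, had 1080.6, 874.7 and 424.6 in PS medium + Dox, 91.4, 95.3 and 96.9 in PS medium, and 147.2, 133.9 and 218.0 in untreated cells. Every PS medium + Dox array exceeded every other array, and replicate 3 was the lowest of the 3. That array was also low in TCF7L1, and a link between the levels of these genes was not tested. PPARGC1A was 6.76-fold higher in PS medium + Dox than in PS medium (log2 2.76 ± 0.28, limma adjusted p = 6.59e-05). TFE3, a factor of lysosomal and mitochondrial genes, rose by 0.48, while MYC fell by 0.78 and GABPA, the DNA-binding subunit of GABP, fell by 0.28. Against untreated cells TFE3 was lower in both PS medium groups (log2 -1.14 in PS medium and -0.66 in PS medium + Dox). GABPA was 0.41 higher in PS medium than in untreated cells, and its PS medium + Dox arrays (907.0 to 927.2) lay between those groups. MYC was 0.97 lower in PS medium + Dox than in untreated cells. NRF1 and PPRC1 differed by -0.06 and 0.03 (adjusted p = 0.709 and 0.929). These 4 calls were of 10 measured regulators, 20% higher and 20% lower, against 8.91% and 8.44% of all genes.

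Of 27 genes of the mitochondrial and ATF4 stress responses 0 rose and 7 fell between PS medium + Dox and PS medium, so that 25.9% fell, against 8.44% of all genes. At an unadjusted p under 0.05 0 were higher and 10 lower (37.0%, against 13.6% of all genes). With the replicate block, which called 24.3% of all genes in either direction, 12 fell. The median log2 difference of the list was -0.18. CHAC1, which degrades glutathione, had 403.3, 436.8 and 287.5 in PS medium + Dox, 585.3, 604.3 and 1167.5 in PS medium, and 1123.5, 1185.7 and 1061.2 in untreated cells, and was 1.98-fold lower than in PS medium (log2 -0.99 ± 0.23, adjusted p = 0.0119). PS medium replicate 3 stood apart from the other PS medium arrays, and the PS medium + Dox arrays were below all others. PCK2, the mitochondrial phosphoenolpyruvate carboxykinase, fell by 0.87 and ALDH1L2, a mitochondrial folate enzyme, by 0.79. ATF4 itself differed by -0.26 ± 0.08 (adjusted p = 0.055), and the mitochondrial chaperonins HSPD1 and HSPE1 by -0.14 and -0.11 (adjusted p = 0.114 and 0.282).

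Of 68 nuclear genes of the respiratory chain and ATP synthase 9 rose and 1 fell with Dox (14.7%, against the 17.4% of all genes). By direction 13.2% rose, against 8.91% of all genes, and 1.47% fell, against 8.44%. At an unadjusted p under 0.05 27 were higher (39.7%) and 2 lower (2.94%), against 14.7% and 13.6% of all genes. Groups did not overlap for 33 higher and 2 lower genes of the 68, against 15.9% and 15.0% of all genes. The median log2 difference was 0.12 and 58 of 68 differences (85.3%) were above 0, against 50.6% over all genes. With the replicate block, which called 24.3% of all genes in either direction, 26 rose, and in a fit without the intensity trend 5 rose. The fall was lost without PS medium + Dox replicate 1 or 3 or PS medium replicate 1 or 3. UQCRH, a subunit of complex III, rose by 0.47 ± 0.08 (adjusted p = 0.00245), UQCR10, of the same complex, by 0.28, and NDUFS4, of complex I, by 0.35. Of 66 cytosolic ribosomal protein genes 1 rose and 2 fell (4.55%, against 17.4% of all genes), with a median of -0.02. RPS23 rose by 0.32, and RPL22L1 and RPS24 fell by 0.70 and 0.29. With the replicate block 2 rose. The list had 1 faller without PS medium + Dox replicate 1 or 3, PS medium replicate 1 or any 1 untreated replicate.

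**Figure D4:**
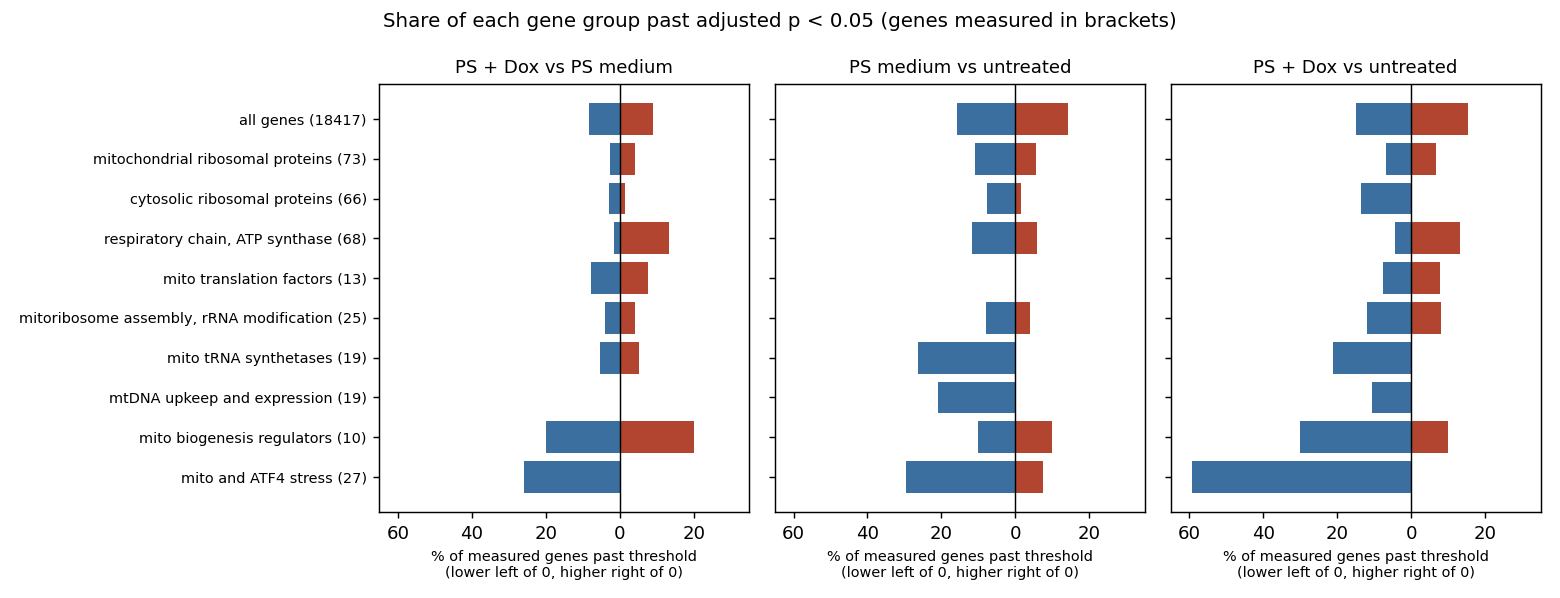
Share of each gene group past an adjusted p of 0.05 in the 3 comparisons (horizontal axis, percent of measured genes, fallers left of 0 and risers right of 0), with the number of genes measured in brackets. Of the 73 mitochondrial ribosomal protein genes 5, 12 and 10 were called in the panels from left to right, each a smaller share than over all genes.

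Against untreated cells the lists were read in the same way, and the plot of shares by gene group shows those not described here. In PS medium 8 stress genes fell (29.6%, against 15.7% of all genes) and 2 rose (7.41%, against 14.2%), with 5 fallers without any 1 untreated replicate and 3 under median centring, and 1 riser without PS medium + Dox replicate 1, PS medium replicate 3 or any 1 untreated replicate. In PS medium + Dox 16 of the 27 fell (59.3%, against 14.9% of all genes) and 0 rose against untreated cells, where 15.3% of all genes rose, with 0 higher and 16 lower at an unadjusted p under 0.05, and 1 rose with the replicate block or without PS medium replicate 3. ALDH1L2 fell by 1.85 and CHAC1 by 1.59 on the log2 scale. Among the mitochondrial tRNA synthetase genes 5 fell in PS medium (26.3%, against 15.7% of all genes) and 4 in PS medium + Dox (21.1%, against 14.9%), and 0 rose in limma in either comparison, with 0 higher in PS medium and 2 higher in PS medium + Dox at an unadjusted p under 0.05 and 1 riser in PS medium + Dox with the replicate block. The largest fall was that of MARS2, the methionyl-tRNA synthetase (log2 -0.52 in PS medium and -0.74 in PS medium + Dox). The 5 fallers in PS medium were 3 without PS medium replicate 1 or 3 or untreated replicate 1 or 2. TWNK, the helicase of mitochondrial DNA replication, fell by 0.57 in PS medium and by 0.63 in PS medium + Dox. CHCHD1 and PTCD3, mitoribosomal proteins with other symbols, fell by 0.28 and 0.19 in PS medium and by 0.30 and 0.21 in PS medium + Dox; median centring called 0 of that list in either comparison. In PS medium the list had 1 faller without PS medium replicate 1 or 3 or untreated replicate 2 and 0 without untreated replicate 1, and in PS medium + Dox it had 1 without untreated replicate 1.

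Of the 68 respiratory chain and ATP synthase genes 4 rose (5.88%, against 14.2% of all genes) and 8 fell (11.8%, against 15.7%) between PS medium and untreated cells, with a median log2 difference of -0.06 and 51 of 68 differences below 0 (75%, against 51.1% of all genes). COX7C, a subunit of complex IV, fell by 0.57, NDUFS6, of complex I, fell by 0.45, and ATP5PD, of ATP synthase, rose by 0.42. Risers numbered 2 without PS medium replicate 3 or untreated replicate 1, and median centring gave 5 fallers. In PS medium + Dox against untreated cells 9 rose (13.2%, against 15.3%) and 3 fell (4.41%, against 14.9%), with a median of 0.05. These comparisons share arrays with that of PS medium + Dox and PS medium. Against untreated cells the replicate block gave 15 risers in PS medium + Dox, where it called 38.3% of all genes. Risers in PS medium + Dox numbered 5 without untreated replicate 1 or 2, and 1 gene fell without untreated replicate 1 or under median centring.

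Among the 66 cytosolic ribosomal protein genes 1 rose and 5 fell (7.58%, against 15.7% of all genes) between PS medium and untreated cells, led by RPL37A, which fell by 0.35. The rise was lost without any 1 PS medium or untreated replicate, 2 rose without PS medium + Dox replicate 1, and 8 fell without untreated replicate 2. In PS medium + Dox 0 rose and 9 fell (13.6%, against 14.9%) against untreated cells, with 1 higher and 12 lower at an unadjusted p under 0.05. Fallers numbered 5 without PS medium + Dox replicate 1, 4 without replicate 2, 3 without replicate 3, 3 without untreated replicate 1 and 4 without untreated replicate 3, and 3 under median centring and 5 without the intensity trend. With the replicate block, or without PS medium + Dox replicate 1 or 3 or untreated replicate 2, 1 rose.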

How the data were processed

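RNA was measured on 9 arrays of the H9-TCF7L1 cell line, 3 in each of 3 groups, which the labels give by title. The authors deposited probe set intensity on a linear scale, made with Affymetrix Expression Console 1.1.1 and PLIER 2.0 per the submitters' processing notes. How background was corrected and arrays normalized is not given in the sources used here. The deposited intensity ran from 2.47e-05 to 57102, and with 3 arrays a group the number of arrays limits the precision.

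Of 33297 probe sets 19460 had 1 symbol, 1754 several and 12083 none listed, and 19429 took a current symbol by gene number from RefSeq (GRCh38.p14). Values were turned to log2(value + 16) and quantile-normalized, because array medians spanned 0.10, so folds are on that scale and understate changes of dim genes. The probe set with the highest mean stood for a gene (18417 genes). limma 3.58.1 under R 4.3.3 fitted 1 mean per group to all 9 arrays (lmFit, eBayes with trend, 6 residual degrees of freedom), with Benjamini-Hochberg adjustment over all genes at 0.05. Files were read with version 1.17.8 of data.table and figures made in Python 3.11.15 (matplotlib 3.10.9). The procedure was tested on simulated data.

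The members and gene lists were chosen with earlier results of these data known. Named genes were, per comparison, up to 10 rises and 10 falls of members past the threshold, a fixed set of members, members with several probe sets, up to 3 called genes per list, and NRF1, GABPA, PPRC1, MYC and TCF7L1. MRPL17, MRPL34, MRPL46, TFAM, ATF4, HSPD1, HSPE1 and PSMA2, were named after their values were seen.

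Separate cultures are not stated for the replicates, and p-values then reflect only how far these samples spread, possibly for technical reasons. Arrays of the same replicate number deviated together at correlations of 0.245, 0.428 and 0.246 between PS medium + Dox and PS medium, at 0.246, 0.309 and 0.297 between PS medium + Dox and untreated cells, and at 0.0856, 0.397 and 0.271 between PS medium and untreated cells. The first 2 sets all exceed 0.1, but not all of the last set do, and every correlation is positive. Deviations within a group cancel out, so arrays of unlike numbers must covary negatively on average. The replicate block raised the share of all genes called from 17.4% to 24.3% between PS medium + Dox and PS medium. Between PS medium and untreated cells it went from 29.8% to 37.7%, and between PS medium + Dox and untreated cells from 30.3% to 38.3%. Same-numbered arrays thus shared part of their deviation, which the main fit leaves out. What the numbers stand for is not said in the labels. The fit without the block was kept, and 19 alternatives were tried: offsets of 1 and 64, values as deposited, median centring, a filter on dim genes, all probe sets with 1 symbol, the symbols of the array annotation, a fit of the compared groups only, the replicate block, eBayes without trend, and each of the 9 arrays left out.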

Additional observations from a re-analysis of the deposited data

How the results depend on the processing

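Between PS medium + Dox and PS medium, the 3 members higher became 1 under median centring, 1 when only the compared groups were fitted and 8 with the replicate block, while the 2 lower became 4 on values as deposited and 4 with the replicate block. Leaving out 1 array at a time gave 1 to 3 higher, 2 to 3 lower and a median of 0.003 to 0.06. Between PS medium and untreated cells, median centring gave 3 lower and a median of -0.00523. The replicate block gave 8 higher and 10 lower, where it called 37.7% of all genes. Not all correlations of same-numbered arrays exceeded 0.1 there, though all were positive. Leaving out 1 array gave 2 to 5 higher, 5 to 10 lower and a median of -0.09 to -0.04. Between PS medium + Dox and untreated cells the 5 lower became 3 on values as deposited, under median centring, when only the compared groups were fitted and without the intensity trend, the median became 0.0307 under median centring, and the replicate block gave 10 higher and 9 lower. Leaving out 1 array gave 3 to 8 higher, 3 to 7 lower and a median of -0.04 to 0.01. The share of all genes called, 17.4% between PS medium + Dox and PS medium, was 13.1% to 16.7% with 1 array left out. No result reversed past its threshold under the 19 alternatives, and the cause of the moves was not tested. The filter on dim genes removed 0 members. Signal over background was not measured here.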
